A study of Mus musculus with 8 samples.

Results

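The transcripts described here are *H19* and 9 other imprinted genes linked to growth, *Dlk1*, *Meg3*, *Peg3*, *Plagl1*, *Cdkn1c*, *Mest*, *Grb10*, *Nnat* and *Ndn*. They are 10 of the 46078 genes in the count tables, found by matching Ensembl identifiers to mouse symbols. *H19* was picked because it was higher after treatment in earlier results of the same libraries, so its values are given as a description with no test. The other 9 were listed for being imprinted, and the question was which of them shared the pattern of *H19* across infarcts.

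RNA was sequenced from hand-dissected infarcts of 8 wild-type C57BL/6J mice, 18 months old and male according to the methods of the study. All 8 underwent DH stroke, a permanent closure of a cortical branch of the middle cerebral artery followed by hypoxia. From 1 week after stroke, 4 animals received PBS (vehicle) and 4 received 4 g/kg of 2-hydroxypropyl-β-cyclodextrin (HPβCD, a ring-shaped sugar that binds cholesterol), both under the skin 3 times per week for 6 weeks, and the tissue was collected at 7 weeks. Values are CPM, read counts of a gene relative to the total of its library and scaled with TMM factors, from libraries of 16.6 M to 32.9 M gene counts. At this depth a count of 3 was worth between 0.0861 and 0.184 CPM, and such floors cover counting error only.

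Imprinted genes are read mainly from one parental copy, chosen by methylation marks set in the germ line. Several maternally expressed members (*H19*, *Cdkn1c*, *Grb10*) are known as brakes on growth, whereas several paternally expressed ones (*Igf2*, *Peg3*, *Mest*, *Dlk1*) are known to promote it. Most are abundant in the embryo and decline after birth, while some stay active in adult neurons (*Meg3*, *Peg3*, *Ndn*, *Nnat*) or in the meninges (*Igf2*, *H19*). Gene counts do not tell the parental copies apart, so imprinting itself was not measured. Maternally or paternally expressed is used here as a general label of a gene. The copy in use in these infarcts is not known. Because whole tissue was sequenced, fewer cells of a type and less RNA per cell cannot be told apart.

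Some of these loci also encode microRNAs, which are shown because they lie inside the host transcripts whose counts are compared here. RefSeq places 9 mature microRNAs within the loci of *H19*, *Igf2*, *Meg3* and *Mest*. Each is written 5′ to 3′ with the seed, bases 2 to 8, in capitals, and the 9 seeds all differ, so none of these microRNAs share a seed family.
miR-675-5p (*H19*): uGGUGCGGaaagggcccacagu
miR-675-3p (*H19*): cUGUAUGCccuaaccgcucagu
miR-483-5p (*Igf2*): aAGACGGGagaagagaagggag
miR-483-3p (*Igf2*): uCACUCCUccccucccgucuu
miR-770-5p (*Meg3*): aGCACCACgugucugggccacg
miR-770-3p (*Meg3*): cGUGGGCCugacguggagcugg
miR-1906 (*Meg3*): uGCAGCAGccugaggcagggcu
miR-335-5p (*Mest*): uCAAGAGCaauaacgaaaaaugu
miR-335-3p (*Mest*): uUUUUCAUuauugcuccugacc

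The miR-675 hairpin (GRCm38, chr7:142577064-142577147, minus strand) lies in an exon of 3 of the 7 annotated *H19* transcripts. The miR-770 hairpin lies in an exon of 1 of 11 *Meg3* transcripts, and the hairpins of miR-335 and miR-483 lie in no annotated exon of *Mest* or *Igf2*. The hairpin genes *Mir675* and *Mir483* were listed at 0 counts in every library. Libraries of polyadenylated RNA do not capture mature microRNAs, so nothing on the level of these microRNAs can be read from the counts.

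*H19* (ENSMUSG00000000031, GRCm38 chr7:142575529-142578143, minus strand) is a maternally expressed long noncoding RNA and the precursor of miR-675. It stood at 11.4, 18.1, 5.27 and 21.6 CPM in vehicle animals 1 to 4, and at 73.5, 83.4, 42.9 and 59.1 CPM in HPβCD animals 1 to 4. The lowest treated animal, number 3, lay above the highest vehicle animal, number 4, so the groups did not overlap. Of its exon length, 3.42% is shared with *Mir675* on the same strand and 5.73% with genes on the opposite strand. The log2 fold change was 2.20 (SE 0.42), and over 16 other ways of fitting the data it ranged from 1.72 to 2.49.

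*Igf2* (chr7:142650766-142666816, minus strand), the paternally expressed growth factor gene next to *H19*, uses the same enhancers in the embryo. It measured 208, 362, 183 and 280 CPM in vehicle animals 1 to 4 and 810, 1015, 387 and 530 CPM in HPβCD animals 1 to 4. The groups did not overlap, although vehicle animal 2 lay close to HPβCD animal 3. Its log2 fold change of 1.41 (SE 0.34) did not pass the threshold by the quasi-likelihood test of edgeR (adjusted p = 0.063). DESeq2 (adjusted p = 0.00175) and limma-voom (adjusted p = 0.00911) did call it, and over the 16 alternatives its adjusted p ranged from 0.00175 to 0.19. Of its exon length, 62.8% is shared on the same strand with *Gm49394*, a gene model that was not among the counted genes.

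Within a library, the CPM of *H19* amounted to 5.48%, 5.01%, 2.88% and 7.73% of the CPM of *Igf2* in vehicle animals 1 to 4. The corresponding values were 9.07%, 8.22%, 11.1% and 11.1% in HPβCD animals 1 to 4. All 4 treated animals thus lay above all 4 vehicle animals in this ratio, which is given without a test because it contains *H19*.

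Within 200 kb on either side of *H19* the annotation holds 20 other genes, of which 17 were in the count tables and 6 had enough counts to be tested. Besides *Igf2* these were *Ctsd*, *Lsp1*, *Tnni2*, *Igf2os* and *Mrpl23*, named although only called genes were to be named here. All 6 had a positive log2 fold change and 0 were called by edgeR, where 1.95% of all 14736 tested genes were. An unadjusted p under 0.05 was found for 4 of them (*Ctsd*, *Lsp1*, *Tnni2* and *Igf2*), as for 27.8% of all tested genes. DESeq2 called 2 of them (*Ctsd* and *Igf2*), where it called 17.5% of all genes given an adjusted p. With limma-voom 3 were called (*Ctsd*, *Tnni2* and *Igf2*), as were 21.9% of all tested genes. *Ctsd*, which encodes the lysosomal protease cathepsin D, came closest after *Igf2*, with a log2 fold change of 0.98 (SE 0.27, adjusted p = 0.0774 by edgeR).

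Of the 9 members other than *H19*, 8 had enough counts to be tested and 1, *Grb10*, was called by edgeR at an adjusted p under 0.05, a share to be read against the 1.95% of all tested genes (1.17% higher, 0.774% lower). Among the 8, 3 had a positive log2 fold change (*Plagl1*, *Grb10*, *Cdkn1c*) and 5 a negative one (*Meg3*, *Peg3*, *Mest*, *Ndn*, *Nnat*), with a median of -0.85 against -0.05 over all tested genes. All 8 had an unadjusted p under 0.05, as did 27.8% of all tested genes. Without vehicle animals 1 and 3, the libraries richest in neuron transcripts, 8 again had enough counts, 4 were higher and 4 lower (median -0.10), and 0 were called by edgeR (2 at an unadjusted p under 0.05), where 1.34% of all tested genes were called. DESeq2, the test used in the study, called 5 of the 9 members (*Grb10* and *Plagl1* higher, *Meg3*, *Peg3* and *Mest* lower), where it called 17.5% of all genes given an adjusted p (6.1% higher, 11.4% lower). The third test, limma-voom, called 3 (*Grb10*, *Plagl1* and *Cdkn1c*, all higher), where it called 21.9% (11.1% higher, 10.9% lower).

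**Figure D1:**
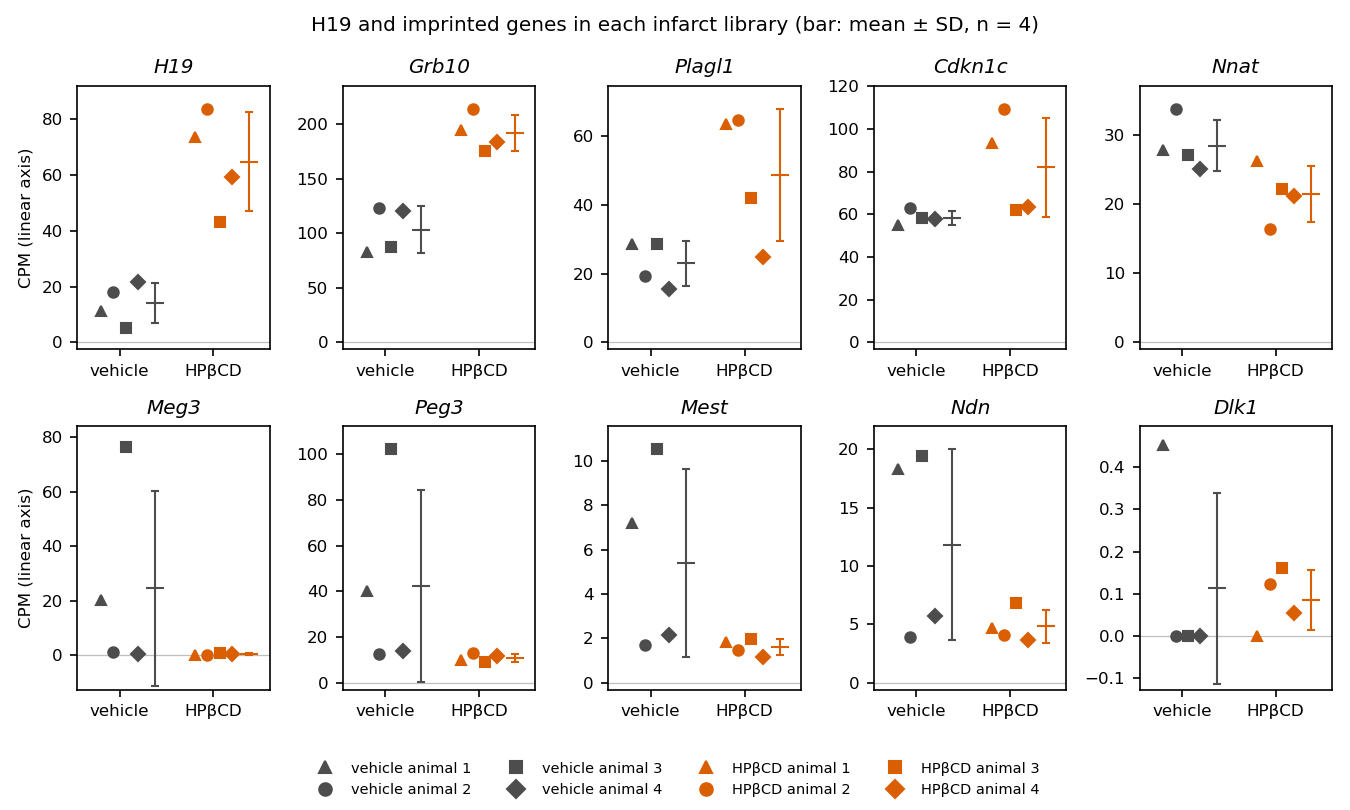
CPM on linear axes for the 10 members in each of the 4 vehicle (grey) and 4 HPβCD (orange) infarct libraries, with symbols for animal numbers and bars for the mean ± SD. *H19* and *Grb10* are the panels in which the groups do not overlap, and in *Meg3*, *Peg3*, *Mest* and *Ndn* vehicle animals 1 and 3 stand above the other 6 libraries.

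*Grb10* (ENSMUSG00000020176, chr11:11930508-12038683, minus strand) encodes an adaptor protein that binds the insulin and IGF1 receptors and dampens their signal. It was measured at 83.1, 122.9, 87.5 and 120.7 CPM in vehicle animals 1 to 4 and at 195, 214, 176 and 184 CPM in HPβCD animals 1 to 4. Every treated infarct lay above every vehicle infarct, as in 8.77% of all tested genes (16.8% in either direction), and the treated animals were close to each other. *Grb10* rose from 104 ± 21.2 to 192 ± 16.5 CPM (mean ± SD, n = 4), a log2 fold change of 0.89 (SE 0.17, adjusted p = 0.0483 by edgeR).

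The call of *Grb10* lay close to the threshold. It was lost when vehicle animal 1 or 4 or any single HPβCD animal was left out (adjusted p from 0.053 to 0.175 by edgeR), while the log2 fold change stayed between 0.81 and 0.99 in those fits. With vehicle animals 1 and 3 left out together it was 0.67 (adjusted p = 0.053). Over the 16 alternatives the adjusted p ranged from 0.000435 (DESeq2) to 0.175.

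RefSeq gives 2 starts for *Grb10*, whose upstream sequences are shown because it was the member called. Which CpG carry the methylation marks that set its imprinting was not examined. The 250 bases before each start are written 5′ to 3′ on the minus strand of GRCm38, with each CpG in capitals.
*Grb10*, chr11:12037421-12037670: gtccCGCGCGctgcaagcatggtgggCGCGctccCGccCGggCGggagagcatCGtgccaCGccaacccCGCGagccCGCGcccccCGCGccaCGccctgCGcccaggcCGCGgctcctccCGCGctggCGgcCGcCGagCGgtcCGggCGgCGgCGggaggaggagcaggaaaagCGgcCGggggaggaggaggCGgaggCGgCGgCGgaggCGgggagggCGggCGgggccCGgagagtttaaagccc
*Grb10*, chr11:12027972-12028221: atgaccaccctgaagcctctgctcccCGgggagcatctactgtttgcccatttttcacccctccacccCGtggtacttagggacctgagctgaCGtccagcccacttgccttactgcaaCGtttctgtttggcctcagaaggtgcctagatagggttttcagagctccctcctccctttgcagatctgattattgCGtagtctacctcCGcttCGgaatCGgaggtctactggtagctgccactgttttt
The upstream stretch of the first start holds 40 CpG, a number reached by 1.31% of the 32851 such stretches in the table, whose median is 6. The second holds 8, reached by 43.0% of them. Counts per gene do not separate transcripts of the 2 starts, and methylation was not measured.

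*Plagl1* (ENSMUSG00000019817, chr10:13060504-13131694, plus strand) encodes a paternally expressed zinc finger transcription factor that regulates other imprinted genes. It reached 28.6, 19.3, 28.7 and 15.6 CPM in vehicle animals 1 to 4 and 63.7, 64.6, 42.0 and 24.8 CPM in HPβCD animals 1 to 4. HPβCD animal 4 fell within the vehicle range. The log2 fold change of 1.08 (SE 0.33) did not pass the edgeR threshold (adjusted p = 0.0889), and it was 1.49 without vehicle animals 1 and 3.

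*Cdkn1c* (ENSMUSG00000037664, chr7:143458339-143461050, minus strand) encodes p57KIP2, a maternally expressed inhibitor of cyclin-dependent kinases. It was at 54.9, 62.8, 58.4 and 57.8 CPM in vehicle animals 1 to 4 and at 93.3, 109, 62.1 and 63.6 CPM in HPβCD animals 1 to 4. HPβCD animals 1 and 2 stood apart, whereas HPβCD animals 3 and 4 were level with the highest vehicle animal. Its log2 fold change was 0.49 (SE 0.20, adjusted p = 0.151 by edgeR), and 30.7% of its exon length is covered by *Gm44732* on the opposite strand, which matters only if reads were counted without regard to strand.

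*Meg3* (ENSMUSG00000021268, chr12:109541001-109571726, plus strand) is the maternally expressed noncoding RNA of the *Dlk1*-*Dio3* cluster and is abundant in adult neurons. It had 20.2, 1.23, 76.5 and 0.43 CPM in vehicle animals 1 to 4 and 0.17, 0.18, 1.02 and 0.33 CPM in HPβCD animals 1 to 4. The HPβCD values rested on 3, 3, 19 and 6 reads. Vehicle animals 1 and 3 were far above the other 6 libraries, and vehicle animals 2 and 4 were within or just above the range of the treated ones. The log2 fold change was -5.80 (SE 1.72, adjusted p = 0.0896 by edgeR) with all animals and -0.96 (SE 0.74) without vehicle animals 1 and 3.

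*Dlk1* (ENSMUSG00000040856, chr12:109452823-109463336, plus strand), the paternally expressed transmembrane protein of the same cluster, was nearly undetected. It had 8, 0, 0 and 0 reads in vehicle animals 1 to 4 and 0, 2, 3 and 1 reads in HPβCD animals 1 to 4. Only vehicle animal 1 exceeded the floor of 3 counts, so the gene was not tested and no fold change is given.

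*Peg3* (ENSMUSG00000002265, chr7:6703892-6730431, minus strand) encodes a paternally expressed zinc finger protein. Its values were 40.2, 12.5, 102.1 and 13.9 CPM in vehicle animals 1 to 4 and 9.94, 12.9, 9.02 and 11.7 CPM in HPβCD animals 1 to 4. As for *Meg3*, vehicle animals 1 and 3 stood out and vehicle animals 2 and 4 lay beside the treated ones. The log2 fold change of -1.95 (SE 0.67, adjusted p = 0.116 by edgeR) became -0.26 (SE 0.20) without those 2 animals.

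*Mest* (ENSMUSG00000051855, chr6:30723547-30748465, plus strand), a paternally expressed gene for a hydrolase-like protein and the host of miR-335, measured 7.18, 1.69, 10.5 and 2.15 CPM in vehicle animals 1 to 4. In HPβCD animals 1 to 4 it measured 1.84, 1.47, 1.99 and 1.17 CPM. Vehicle animals 1 and 3 were again the high ones. Its log2 fold change was -1.73 (SE 0.58, adjusted p = 0.106 by edgeR), or -0.23 without them, and 23.1% of its exon length is covered by *Copg2* on the opposite strand.

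*Ndn* (ENSMUSG00000033585, chr7:62346569-62350262, plus strand) encodes necdin, a paternally expressed protein of postmitotic neurons. It was at 18.3, 3.87, 19.4 and 5.70 CPM in vehicle animals 1 to 4 and at 4.71, 4.04, 6.82 and 3.66 CPM in HPβCD animals 1 to 4. The same vehicle animals were high, and vehicle animals 2 and 4 lay within the treated range. A log2 fold change of -1.29 (SE 0.53, adjusted p = 0.156 by edgeR) turned to 0.03 (SE 0.31) without vehicle animals 1 and 3.

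*Nnat* (ENSMUSG00000067786, chr2:157560078-157562522, plus strand), which encodes the small endoplasmic reticulum protein neuronatin, did not show these high libraries. It measured 27.8, 33.7, 27.1 and 25.1 CPM in vehicle animals 1 to 4 and 26.2, 16.4, 22.2 and 21.2 CPM in HPβCD animals 1 to 4. HPβCD animal 1 overlapped the vehicle range and the other treated animals lay under it. The log2 fold change was -0.40 (SE 0.17, adjusted p = 0.175 by edgeR) and -0.44 without vehicle animals 1 and 3.

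Levels of different genes were compared per kb of exon. In vehicle infarcts the order of mean CPM per kb was *Cdkn1c* (28.7), *Nnat* (15.5), *Grb10* (11.4), *H19* (5.73), *Ndn* (3.20), *Peg3* (3.16), *Plagl1* (2.95), *Mest* (1.37), *Meg3* (1.36) and *Dlk1* (0.02). The first 3 each lay above the next gene in the order without overlap of their libraries, and the neighbours from *H19* downward overlapped. In HPβCD infarcts *Cdkn1c* (40.2), *H19* (26.3) and *Grb10* (21.1) came first, and the libraries of each overlapped those of the next. *Grb10* was followed without overlap by *Nnat* (11.8), *Plagl1* (6.24), *Ndn* (1.30), *Peg3* (0.818), *Mest* (0.409) and *Meg3* (0.0236), and *Meg3* and *Dlk1* (0.015) overlapped. In mean CPM per kb *H19* therefore had 3 members above it in vehicle infarcts and 1 in HPβCD infarcts.

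A list of 35 other imprinted genes, chosen by name and not for how they moved, was read from the same fit. Of the 24 with enough counts, 12 had a positive and 12 a negative log2 fold change (median -0.03, against -0.05 over all tested genes), and 2 were called by edgeR, both higher, where 1.95% of all tested genes were called. DESeq2 called 11 and limma-voom 7 of the list, where they called 17.5% and 21.9% of all genes. Of the same 24, the groups did not overlap in 3 that were higher and 2 that were lower, against 8.77% and 8.03% of all tested genes. Among its maternally expressed genes 6 of 9 tested were higher and 3 lower (median 0.38), and both called genes belonged to them (4 were called by DESeq2 and 4 by limma-voom). Among its paternally expressed genes 6 of 15 were higher and 9 lower (median -0.22), and 0 were called by edgeR (8 at an unadjusted p under 0.05, 7 called by DESeq2 and 3 by limma-voom).

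*Igf2r* (chr17:12682406-12769664, minus strand) encodes the receptor that takes IGF2 and lysosomal enzymes bearing mannose 6-phosphate to the lysosome. It was at 123, 185, 128 and 165 CPM in vehicle animals 1 to 4 and at 271, 358, 284 and 270.5 CPM in HPβCD animals 1 to 4. No treated animal lay within the vehicle range. *Igf2r* rose by a log2 fold change of 0.98 (SE 0.18, adjusted p = 0.0483 by edgeR). Leaving out vehicle animal 1 or 4 or HPβCD animal 1, 2 or 3 ended the call (adjusted p from 0.0647 to 0.175), as did leaving out vehicle animals 1 and 3 together (0.77, adjusted p = 0.0613). Over its 16 alternatives, the adjusted p of *Igf2r* ranged from 0.000183 to 0.175.

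*Slc22a18* (chr7:143473736-143499334, plus strand), a maternally expressed transporter gene beside *Cdkn1c*, measured 8.88, 6.92, 7.08 and 6.83 CPM in vehicle animals 1 to 4 and 19.7, 21.6, 15.5 and 10.6 CPM in HPβCD animals 1 to 4. The groups did not overlap, with HPβCD animal 4 nearest to the vehicle animals. *Slc22a18* rose by a log2 fold change of 1.18 (SE 0.24, adjusted p = 0.0483 by edgeR), and the call was lost without vehicle animal 1, 2 or 4 or HPβCD animal 1, 2 or 3 (adjusted p from 0.053 to 0.175) and without vehicle animals 1 and 3 together (1.31, adjusted p = 0.0616). Its adjusted p ranged from 0.000386 to 0.175 over the 16 alternatives.

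The 3 most abundant genes in CPM on each side of the list include 4 that were not called. *Ube3a*, a ubiquitin ligase gene, averaged 270.0 ± 46.0 CPM with vehicle and 245 ± 36.0 CPM with HPβCD (n = 4 each), and *Osbpl5*, a gene for a lipid transfer protein, averaged 31.7 ± 2.47 and 41.2 ± 10.4 CPM. The paternally expressed *Impact* averaged 213 ± 30.2 and 215 ± 45.8 CPM. *Peg13* was at 278 CPM in vehicle animal 3 and between 87.1 and 113 CPM in the other 7 libraries. None of the 4 passed the edgeR threshold (adjusted p from 0.229 to 0.971).

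Further imprinted genes are named after their values were seen. *Rian*, a noncoding host of small nucleolar RNAs downstream of *Meg3*, had 67.0, 2.53, 107.6 and 2.37 CPM in vehicle animals 1 to 4 and 0.804, 0.735, 2.63 and 1.89 CPM in HPβCD animals 1 to 4. Its log2 fold change was -4.88 (adjusted p = 0.0861 by edgeR) with all animals and -0.67 without vehicle animals 1 and 3. *Snrpn*, a splicing protein gene active in neurons, had 65.9, 5.37, 316 and 4.73 CPM in vehicle animals 1 to 4 and 1.96 to 8.42 CPM in treated animals, with log2 fold changes of -4.57 and -0.28 in the same 2 fits. *Rasgrf1*, *Nap1l5* and *Zdbf2* also had their highest values in vehicle animals 1 and 3, and their log2 fold changes of -4.98, -3.65 and -4.08 became -0.60, -1.42 and -0.69. *Peg10*, a paternally expressed gene derived from a retrotransposon, had 12.1, 5.597, 25.0 and 5.54 CPM in vehicle animals 1 to 4 and 3.16 to 4.77 CPM in treated animals. Vehicle animals 1 and 3 were again the highest, but its groups did not overlap, and its log2 fold change was -1.74 (adjusted p = 0.0802 by edgeR) with all animals and -0.61 without those 2. *Snurf* and *Magel2* were listed at 0 in every library. For *Snurf*, 100% of the exon length is shared on the same strand with *Snrpn* and *Gm38393*, so its 0 does not show that it was silent.

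*Tspan32*, a maternally expressed tetraspanin gene of blood cells, near *Cdkn1c* on chromosome 7, did not follow this split. It stood at 12.8, 10.5, 6.42 and 9.14 CPM in vehicle animals 1 to 4 and at 3.96, 2.51, 5.10 and 3.44 CPM in HPβCD animals 1 to 4, so the groups did not overlap, with the treated animals lower as in 8.03% of all tested genes. The log2 fold change was -1.37 (SE 0.29, adjusted p = 0.0507 by edgeR), and it was -1.37 again without vehicle animals 1 and 3, where *Tspan32* was the 1 gene of the list called (0.856% of all tested genes were called lower in that fit).

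**Figure D2:**
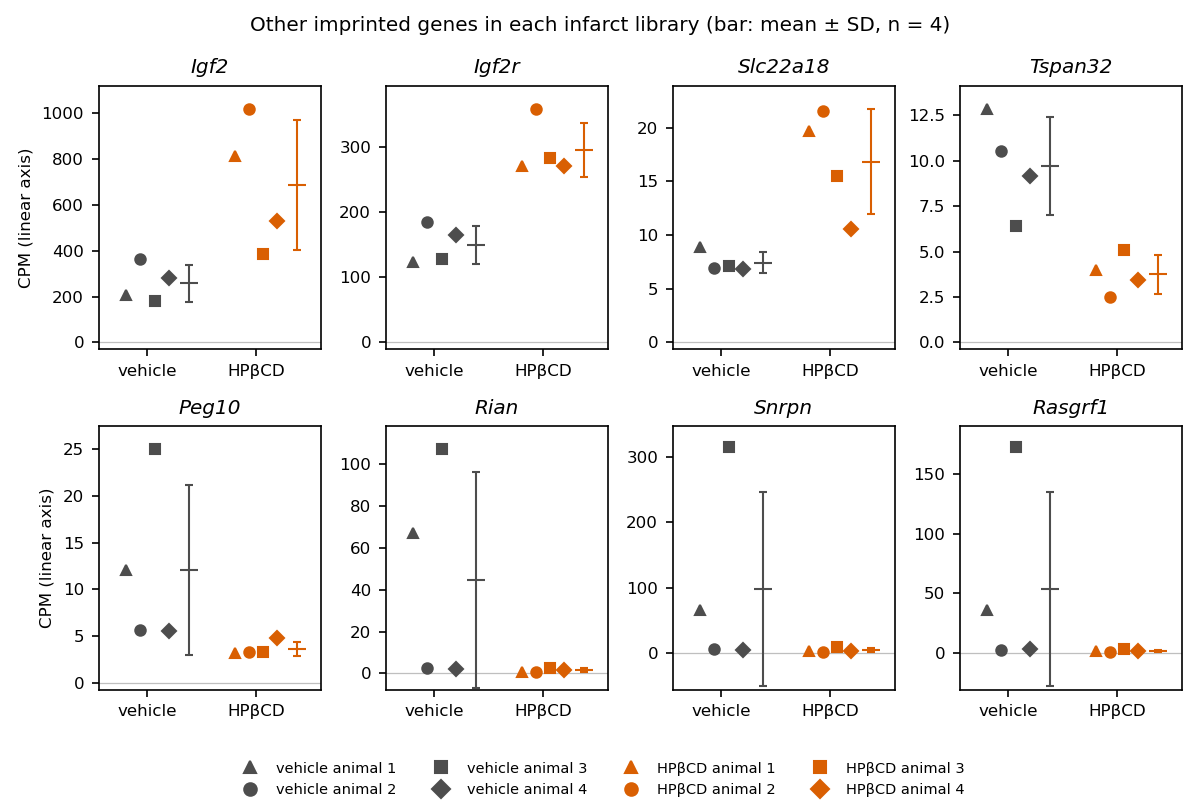
CPM on linear axes for 8 imprinted genes outside the 10 members in each of the 4 vehicle (grey) and 4 HPβCD (orange) libraries, with bars for the mean ± SD. The groups do not overlap in the upper row and in *Peg10*, which are all such genes among the 24 tested of the list. Over all tested genes, 16.8% have groups that do not overlap. In all 4 panels of the lower row vehicle animals 1 and 3 stand above all others.

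Proteins that act with the members were followed as a list of 11 partners, comprising IGF and insulin receptors, *Igf2* and its mRNA-binding proteins, Notch receptors and cyclin E with its kinase. Of the 9 with enough counts, 6 had a positive and 3 a negative log2 fold change, and 0 were called by edgeR (3 at an unadjusted p under 0.05, 2 called by DESeq2 and 2 by limma-voom). Among all genes, edgeR called 1.95% (27.8% at an unadjusted p under 0.05), DESeq2 17.5% and limma-voom 21.9%. *Notch2* averaged 267 ± 60.1 CPM with vehicle and 392 ± 80.9 CPM with HPβCD, a log2 fold change of 0.55 (SE 0.22, adjusted p = 0.141 by edgeR). The insulin receptor gene *Insr* ranged from 78.8 to 107 CPM and from 94.1 to 111 CPM (log2 fold change 0.14, SE 0.14). *Igf2bp1*, named after its counts were seen and whose protein binds *Igf2* mRNA in the embryo, was at 0 in every library.

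**Figure D3:**
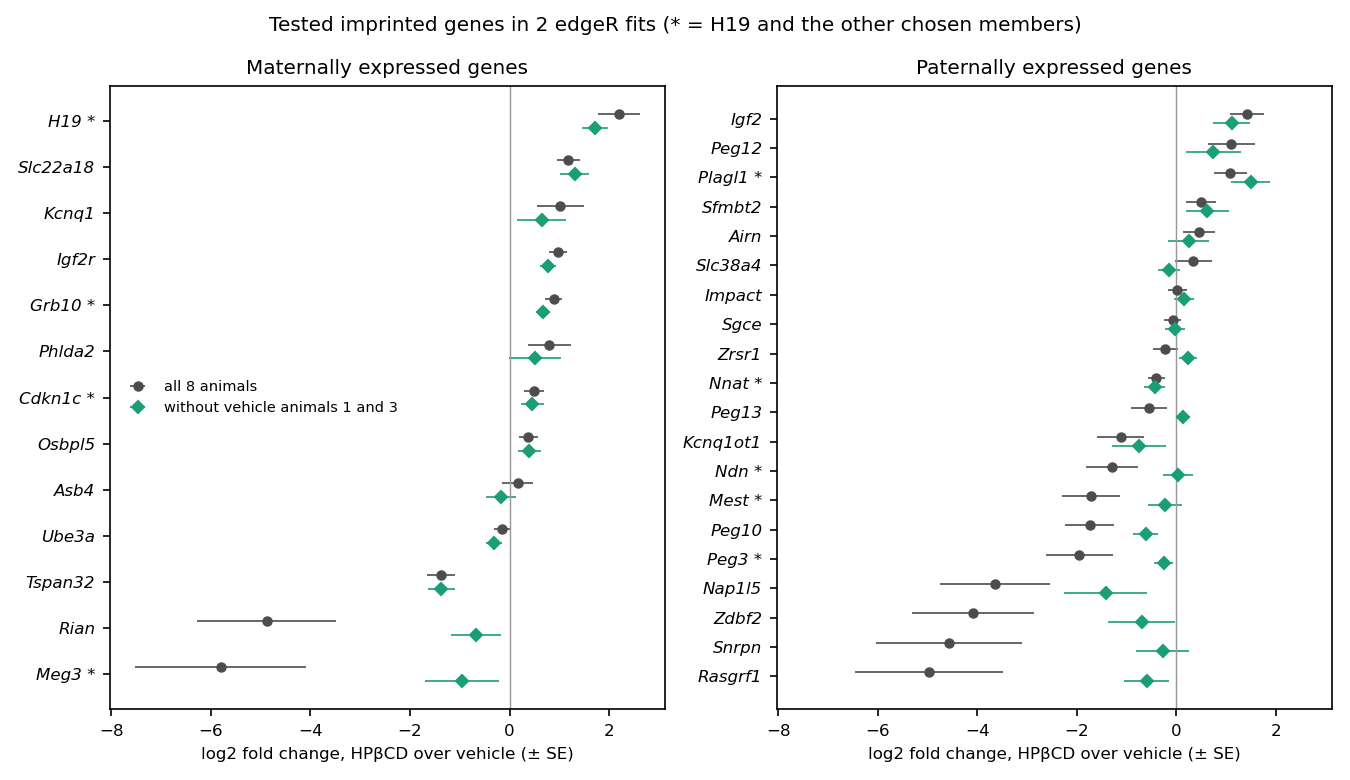
Log2 fold change (HPβCD over vehicle, ± SE) of each tested imprinted gene in the edgeR fit of all 8 animals (grey circles) and without vehicle animals 1 and 3 (green diamonds), with members starred and *H19* shown as a description. *H19*, *Igf2*, *Igf2r*, *Grb10*, *Slc22a18* and *Tspan32* keep their side of 0 at similar distance in both fits, whereas *Meg3* and *Rian* move from -5.80 and -4.88 to -0.96 and -0.67.

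The pattern of *H19* was compared with that of every other tested gene by Pearson correlation of log2 CPM over the 8 libraries. These correlations are descriptions, since the libraries share 2 groups and 1 scaling. Among the members, *Grb10* was most like *H19* (r = 0.965, place 91 of 14735 genes), followed by *Cdkn1c* (0.734) and *Plagl1* (0.574). *Igf2* had r = 0.936 and *Igf2r* 0.942. The members *Nnat* (-0.643), *Ndn* (-0.805), *Peg3* (-0.854), *Mest* (-0.865) and *Meg3* (-0.913) ran the other way. Thus 2 of the 8 members exceeded 0.7, as did 16.8% of tested genes, and 4 lay under -0.7, as did 18.9%.

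When group means were removed, so that only differences between animals of the same group counted, *Grb10* kept r = 0.822 (place 1300) and *Igf2* 0.781. *Cdkn1c* then had 0.422, *Slc22a18* 0.151 and *Plagl1* -0.237. Meanwhile *Meg3* (-0.948), *Mest* (-0.839), *Peg3* (-0.828) and *Ndn* (-0.815) kept their opposite course, and *Nnat* was near 0 (-0.0358). One member, *Grb10*, exceeded 0.7 by this measure, as did 18.0% of tested genes, and 4 lay under -0.7, as did 21.5%.

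The 5 genes most like *H19* over the 8 libraries, among those with a mean of at least 1 CPM, were *Rnf185* (r = 0.993), *Kdelr1* (0.99), *Gpr137b* (0.99), *Scara3* (0.987) and *Sfrp4* (0.984). *Sfrp4*, a secreted Wnt antagonist, averaged 767 ± 313 CPM with vehicle and 2401 ± 285 CPM with HPβCD, and *Rnf185*, a ubiquitin ligase of the endoplasmic reticulum, had 57.3 ± 6.13 and 76.6 ± 5.16 CPM. Within groups the 5 most like it were *Micu2* (0.997), *Tead1* (0.996), *Pon3* (0.994), *Poc1b* (0.991) and *Phldb2* (0.989). The 2 sets of 5 share no gene.

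Markers of cell types that a dissected infarct can hold were summed in each library, because several members are known from particular cells. Counts of called markers are to be read against the shares of all genes. These were 1.95% by edgeR (27.8% at an unadjusted p under 0.05), 17.5% by DESeq2 and 21.9% by limma-voom. The 12 neuron markers summed to 1778, 112, 9974 and 77.7 CPM in vehicle animals 1 to 4 and to between 31.4 and 160 CPM in HPβCD animals. Vehicle animals 1 and 3 thus stood apart in neuron transcripts, as they did in *Meg3*, *Rian*, *Peg3*, *Mest*, *Ndn* and *Snrpn*. All 10 tested neuron markers had a negative log2 fold change (median -5.85), and 0 were called by edgeR (10 at an unadjusted p under 0.05, 11 of 12 called by DESeq2 and 0 by limma-voom). *Snap25*, a synaptic vesicle fusion protein, reached 335 CPM in the first of these animals and 3023 CPM in the other, against 0.919 to 29.9 CPM in the remaining 6 libraries. None of the 12 was at 0 in all libraries. The part of these transcripts in the results on *Meg3*, *Peg3*, *Mest* and *Ndn* was not tested. Leaving out vehicle animals 1 and 3 is no such test, because it also removes the highest values of these genes themselves.

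The 12 fibroblast markers summed to 4080, 6826, 2729 and 6127 CPM in vehicle animals 1 to 4 and to 9479, 10030, 9983 and 9568 CPM in HPβCD animals 1 to 4. Vehicle animals 1 and 3 were the lowest, as they were in *H19*, *Igf2*, *Grb10* and *Igf2r*. Of the 12, 10 had a positive log2 fold change and 2 a negative one, and 2 collagen chain genes, *Col1a1* and *Col1a2*, were called higher by edgeR. DESeq2 called 5 higher and 1 lower, and limma-voom called 5 higher and 2 lower. *Col1a2* rose from 922 ± 246 to 2533 ± 436 CPM. Without vehicle animals 1 and 3, 8 of the 12 markers had a positive log2 fold change and 4 a negative one, and *Col6a3* was called as well (higher). The part of the fibroblast markers in the results on *Igf2*, *Grb10* and *Igf2r* was not tested.

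**Figure D4:**
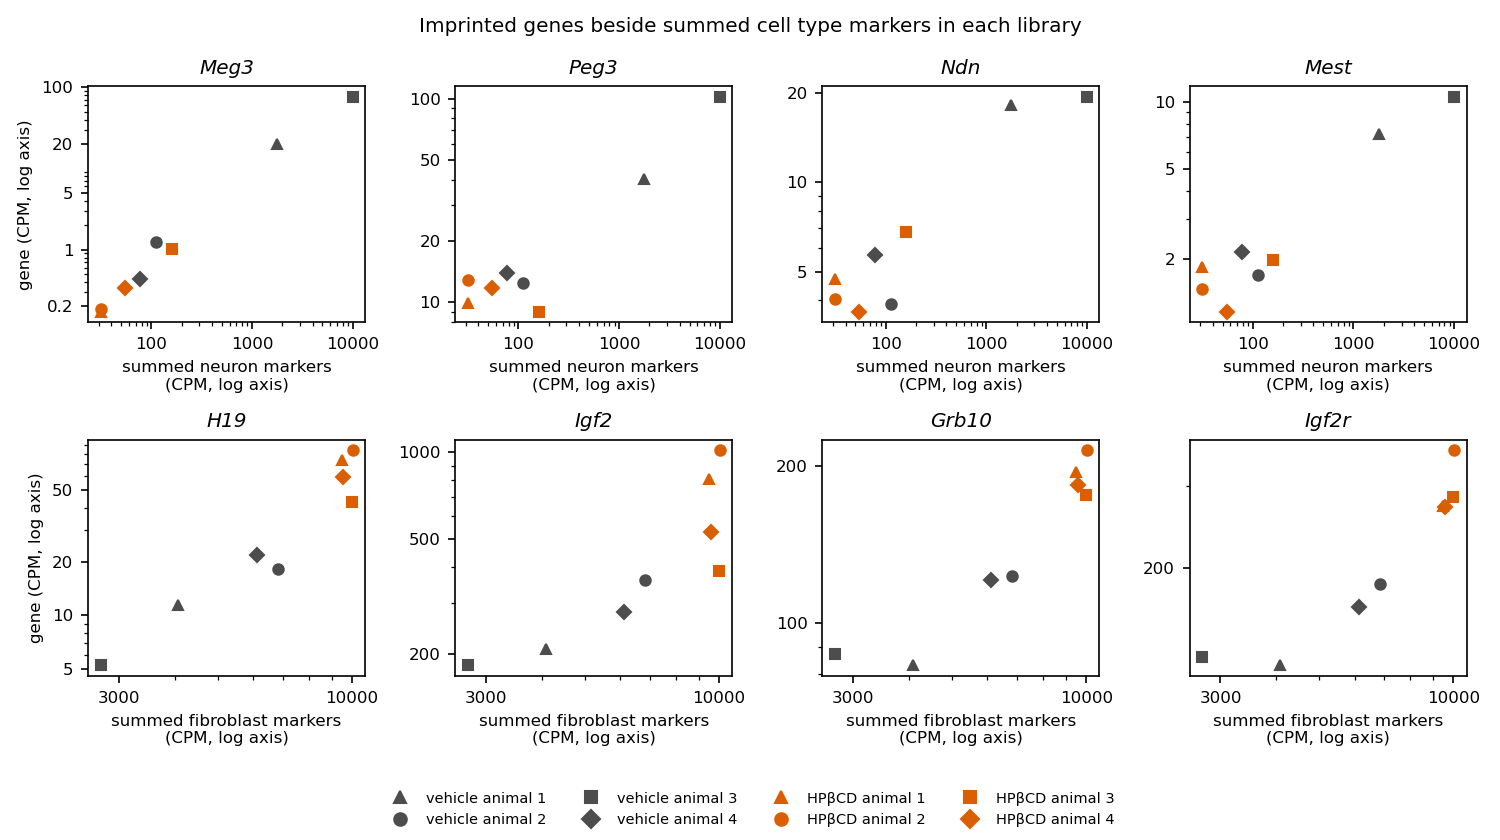
CPM of a gene against the summed CPM of neuron markers (upper row) or fibroblast markers (lower row) in each library, on log axes, with vehicle in grey and HPβCD in orange. Vehicle animals 1 and 3 are highest for both quantities in the upper row and lowest for both in the lower row.

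The order of the vehicle animals in the fibroblast sums was not particular to that list. Macrophage and microglia markers summed to 3924, 5780, 4366 and 6528 CPM in vehicle animals 1 to 4 and to between 9422 and 16100 CPM after HPβCD. Vehicle animals 1 and 3 were again the lowest. *Gpnmb*, a lysosomal membrane protein gene of lipid-laden macrophages, supplied most of each sum and was the 1 of 8 called by edgeR (higher). Of the 8, 4 had a positive and 4 a negative log2 fold change (median 0.06). DESeq2 and limma-voom each called 2 higher (*Gpnmb* and *Cd68*) and 1 lower (*P2ry12*). For *Csf1r*, vehicle animal 1 (485 CPM) lay above vehicle animal 4 (468 CPM), so the order of the sums did not hold for every marker. Mural cell markers summed to 424, 610, 403 and 524 CPM in vehicle animals 1 to 4, where animals 1 and 3 were also the lowest. After HPβCD they summed to 588 to 909 CPM, with *Pdgfrb* called higher. Endothelial markers summed to 568 to 741 CPM and 687 to 1105 CPM in the 2 groups, with 0 called by edgeR (4 at an unadjusted p under 0.05, 2 called by DESeq2 and 4 by limma-voom). Astrocyte markers summed to 7610, 2318, 9884 and 3833 CPM in vehicle animals 1 to 4 and to 709 to 2702 CPM after HPβCD. Vehicle animals 1 and 3 had the highest astrocyte sums, as in the neuron markers. *Slc1a2* supplied 3755 and 7431 CPM of these 2 sums. Vehicle animal 3 was instead the lowest vehicle animal for *Gfap* (296 CPM) and *Aqp4* (255 CPM). Of the 8 astrocyte markers, 0 were called by edgeR (6 at an unadjusted p under 0.05), 5 were called lower by DESeq2 and 7 by limma-voom. Oligodendrocyte markers summed to 1647 to 5173 CPM and 378 to 2235 CPM, with 0 of 7 called by edgeR (0 at an unadjusted p under 0.05), 1 called lower by DESeq2 and 6 by limma-voom.

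Markers of skeletal muscle, a tissue in which *H19* is abundant in adults, summed to at most 11.0 CPM in any library. *Acta1* made up 7.81 CPM of that highest sum, in vehicle animal 3, and *Tnni2*, also a neighbour of *H19*, was lowest in that animal (0.666 CPM). Of the 3 with enough counts, 1 had a negative log2 fold change and 2 a positive one. The positive ones were *Tnni2* with 0.78 (adjusted p = 0.151 by edgeR) and *Actn3* with 1.05 (adjusted p = 0.18), and limma-voom called *Tnni2* higher. DESeq2 fitted all 8 markers, 3 with a positive and 5 with a negative log2 fold change, and called *Acta1* lower. Choroid plexus markers, from a tissue rich in *Igf2*, summed to 15.7 to 17.1 CPM after vehicle and 16.5 to 22.6 CPM after HPβCD. Of the 4 tested, 1 had a positive log2 fold change, *Clic6* with 1.08 (adjusted p = 0.0824 by edgeR), and 3 had a negative one. *Clic6* rose from a mean of 5.82 to 12.3 CPM and was called higher by DESeq2 and limma-voom. Markers of B lymphocytes and plasma cells summed to 1372 to 2910 CPM and 253 to 543 CPM, with 3 of 7 called lower. The part of each of these lists in the results on the members was not tested.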

How the data were processed

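The authors prepared stranded libraries from polyadenylated RNA, trimmed paired-end reads with Trimmomatic 0.32, aligned them to GRCm38 with STAR 2.5.2b and used htseq-count to assign them to genes. The counting version, strand option and annotation release are not given in the sources used here. The deposited values are raw counts per gene, 1 table per animal. The 5 lines of unassigned reads (26.6% to 36.6% of a library) were left out. Symbols matched 45143 of 46078 identifiers. Coordinates are from GENCODE M21 on GRCm38, and sequences from RefSeq tables of GRCm38.p6, which held start windows for 8 of the 10 members.

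Groups and animal numbers came from the labels, which give no batch. The animals are taken as separate, since no pair of libraries had a chi-square under 18.9 times its degrees of freedom. For the comparison of groups, edgeR 4.0.16 was run in R 4.3.3 (robust quasi-likelihood F test, TMM scaling, filterByExpr by group, no covariate), with Benjamini-Hochberg adjustment over all 14736 tested genes and a threshold of 0.05. Log2 CPM used a prior count of 2. DESeq2 1.42.0, the tool of the study, and limma-voom (limma 3.58.1) were alternatives, beside other scalings and filters, the animal number as a block, and leaving out animals. The limma-voom fit used quality weights, so the libraries did not count equally in it. The procedure was tested on simulated data.

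The members and gene lists were chosen with earlier results of these data known. Named were all members, *Igf2*, the called genes and the 3 highest in mean CPM of the imprinted and partner lists, examples of the marker lists, called genes near *H19*, and the 5 genes most like *H19* by each measure, leaving out predicted genes and immunoglobulin segments. Genes outside this rule are marked where they appear.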

Additional observations from a re-analysis of the deposited data

Results flagged for a closer look

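In each group of 4 animals, the highest or lowest log2 CPM of the members and other named imprinted genes and partners was compared with the rest. A sample was far from the others in 3 of the 36 groups searched, where chance alone gives about 1 in 20, or 1.8 of 36. *Igf2r* in HPβCD animal 2 was at 8.49 log2 CPM, against 8.08 to 8.15 in the other treated animals. *Slc22a18* in vehicle animal 1 was at 3.17 log2 CPM, against 2.79 to 2.85 in the other vehicle animals. *Impact* in vehicle animal 3 was at 8.01 log2 CPM, against 7.61 to 7.67 in the other vehicle animals.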

How the results depend on the processing

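Over all genes, 287 were called by edgeR, against 2911 by DESeq2, 3232 by limma-voom, 11 with library totals alone, 11 with a filter at a mean of 1 CPM and 9 with the replicate block, and from 0 to 629 when single animals were left out. Of the members other than *H19* 1 was called, against 5 by DESeq2, 3 by limma-voom, 0 with library totals alone, 0 with the 1 CPM filter, 0 with the replicate block, 0 without vehicle animals 1 and 3 and from 0 to 1 when single animals were left out. Of the other imprinted genes 2 were called, against 11 by DESeq2, 7 by limma-voom, 0 with library totals alone, 0 with the 1 CPM filter, 0 with the replicate block, 1 without vehicle animals 1 and 3 and from 0 to 3 when single animals were left out. The fits without any call still had between 2922 and 4216 genes with an unadjusted p under 0.05. The correlations of deviations between same-numbered animals were -0.257, 0.244, 0.329 and 0.0975, and 2 of 4 were best matched by their own number. With so few animals these values show no clear pairing by number and cannot exclude one.

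The direction turned for *Ndn* (0.030 without vehicle animals 1 and 3), for *Peg13* (0.020 by limma-voom, 0.14 without vehicle animals 1 and 3, and from -0.72 to 0.0031 when single animals were left out, the last without vehicle animal 3), for *Insr* (-0.0031 without vehicle animals 1 and 3) and for *Impact* (-0.056 with library totals alone, and from -0.080 to 0.15 when single animals were left out). Of the imprinted genes not named elsewhere, *Asb4* (0.17 to -0.18), *Slc38a4* (0.34 to -0.14) and *Zrsr1* (-0.22 to 0.23) also turned without vehicle animals 1 and 3. The cause was not tested. *Grb10*, *Igf2r* and *Slc22a18* kept their direction in all 16 alternatives and lost their call in 10, 9 and 10 of them. The number of members with a correlation to *H19* over 0.7 was 2 over the libraries and 1 within groups. The planned ratio of *Dlk1* to *Meg3* was not computed, because *Dlk1* had at most 8 counts in a library.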
